A study of Mus musculus with 6 samples.

Results

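The tubulins, the Arp2/3 complex and the proteins that assemble and take apart actin filaments were measured in mouse skin papillomas with and without Atf2. The probes were taken by gene symbol: every probe whose platform symbol starts with Tuba, Tubb, Tubg, Arpc, Capz, Cfl, Pfn or Tmsb, or is Actr followed by a digit. This gave 76 probes of 46 genes, out of 29534 probes of 17658 genes with a single symbol. The 2 probes of Cflar, a regulator of apoptosis that is not a cofilin, fit the rule by their first letters and were not above background on any array.

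Papillomas are benign skin tumours, here induced in mice of mixed FVB and C57bl6 background by 1 application of the mutagen DMBA and 30 weeks of the tumour promoter TPA, and the mice were about 9 months old when they had them. Total RNA from the papillomas of 3 Atf2 knockout mice made up the knockout pool and that of 2 Atf2 wild-type mice the wild-type pool. Cy3-labelled material of each pool went onto 3 Illumina bead arrays of 1 chip, so arrays of the same pool repeat the measurement and not the biology. Every SD, SE and p-value therefore measures technical spread between arrays of 2 RNA pools, the genotype comparison has no replicate check, and chip position and genotype cannot be told apart. How the Atf2 allele was made, and whether it is missing in all cells, the sources used here do not state.

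Microtubules are polymers of alpha- and beta-tubulin, and gamma-tubulin with its partner proteins starts new ones at the centrosome. Branched actin networks, which push the cell edge forward, are built by the Arp2/3 complex on the side of existing filaments. Capping protein stops growth at the fast-growing end, cofilin cuts and disassembles old filaments, and profilins and beta-thymosins bind the free actin monomers, profilin feeding them into growth and thymosin holding them in reserve. In keratinocytes these systems serve spreading, migration and cell division.

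Raw intensity had medians of 109.9 to 135.5 on the knockout arrays and 135.8 to 148.2 on the wild-type arrays, and knockout array 3 was the dimmest. A probe was called above background where it exceeded the mode of its array's intensities by 3 SDs, which held for 29.2% to 31.4% of probes on the knockout arrays and 32.7% to 34.6% on the wild-type arrays. The brightest Atf2 probe read 171, 133.2 and 103 on the knockout arrays, against 184.5, 176.2 and 186.3 on the wild-type arrays (log2 difference -0.28, limma adjusted p = 0.109). Its place relative to the deleted part is unknown here, so it checks nothing about the labels. Of 13 keratinocyte markers 12 were above background on all 6 arrays, with Krt14, the basal keratin, at 40384.2 to 46222 on the knockout arrays and 48003.1 to 49828.3 on the wild-type arrays. Differences are given on the log2 scale of background-corrected, quantile-normalized intensity, with positive values where the knockout pool was higher. The threshold was a limma adjusted p under 0.05 together with a 2-fold difference or more.

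Of the 76 probes, 33 were above background on all 6 arrays, 16 on some and 27 on none. A filter on mean signal left 54 probes of 39 genes for the test. Of these 54, 9 were lower and 1 was higher in the knockout pool past the threshold, or 16.7% and 1.85%, where 3.93% of all 23058 tested probes were lower, 0.993% higher and 4.92% either. With no filter, the same 9 lower probes and the same higher probe passed among all 76, or 11.8% and 1.32%, where the array as a whole gave 1.98% and 0.497%. Among the 33 probes above background on every array, 6 were lower (18.2%) and 1 higher (3.03%), against 3.99% and 1.57% of 11840 such probes. The 10 probes belong to 8 genes: Tubb5, Tubb2b, Arpc1a, Arpc5, Capzb, Pfn1 and Tmsb10, which were lower, and Cfl1, which was higher.

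**Figure D1:**
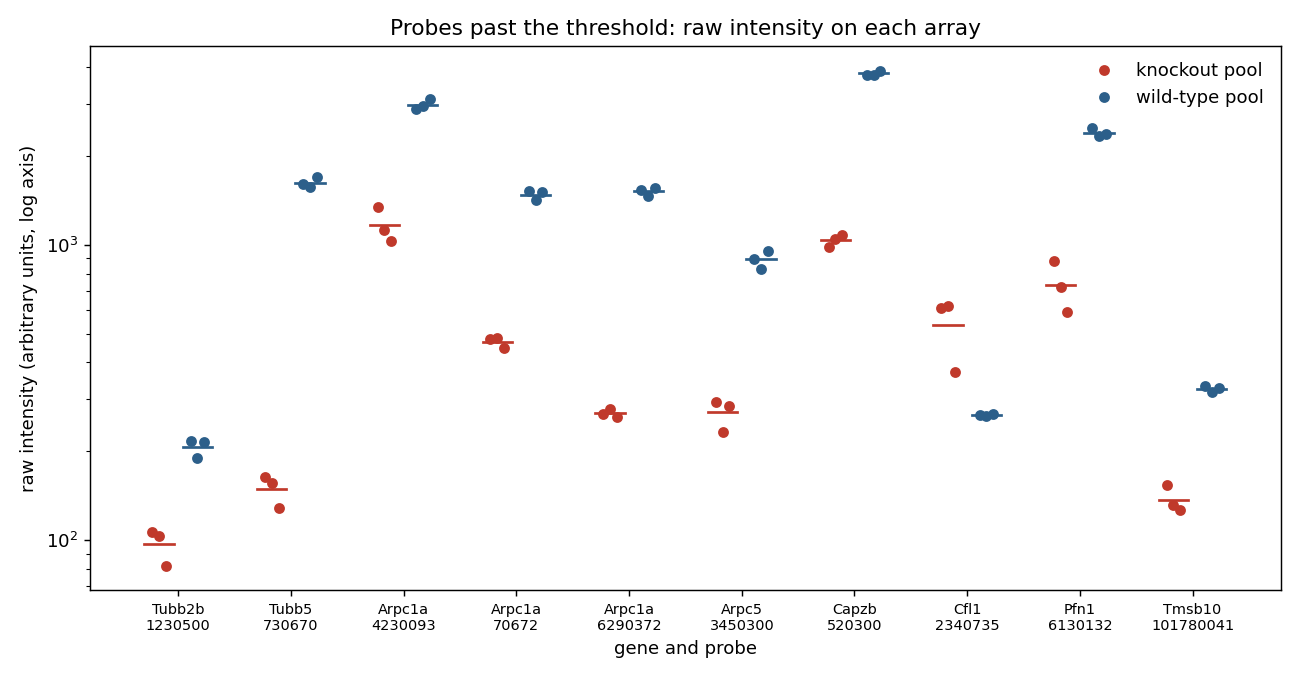
Raw intensity (log axis, arbitrary units) of the 10 probes past the threshold on each of the 3 knockout arrays (red) and 3 wild-type arrays (blue). Points are arrays and bars are the means of a pool. In each probe the points of the pools lie apart, and Cfl1 is the probe whose knockout points lie above.

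Most of the family lay within 2-fold. The median difference over the 54 tested probes was -0.04, beside 0.05 over all tested probes. When each array was scaled to its 75th percentile in place of quantile normalization, the family median was 0.02, beside 0.13 over all probes. The adjusted p alone was passed by 8 family probes that were higher and 21 that were lower, or 14.8% and 38.9%, where 20.9% and 17.6% of all tested probes passed it. The normalized values of the pools did not overlap in 13 probes that were higher and 21 that were lower, or 24.1% and 38.9%, where 27.8% and 20.6% of all tested probes had this pattern.

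**Figure D2:**
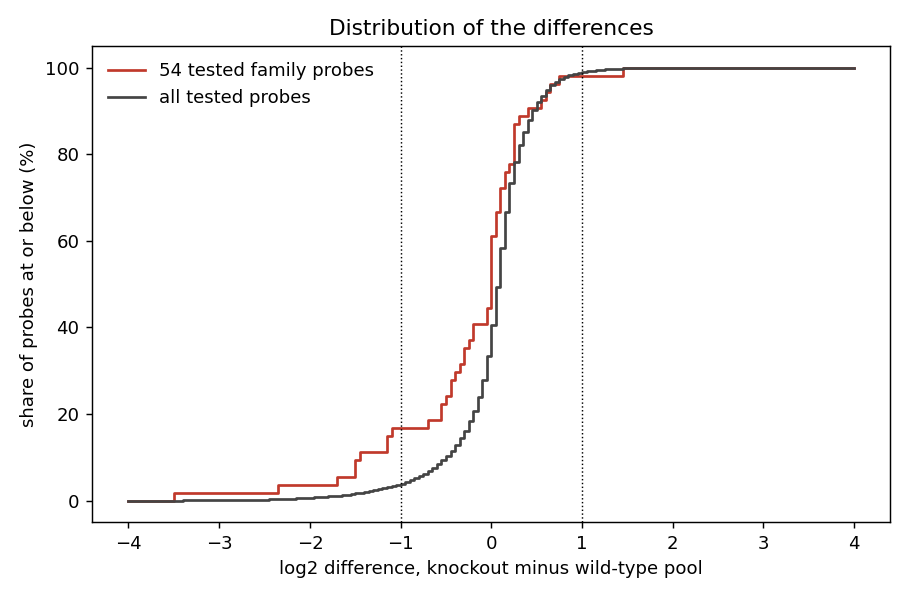
Share of probes (%) at or below each log2 difference, for the 54 tested family probes (red) and all 23058 tested probes (dark grey), with dotted lines at 2-fold. At 2-fold lower the family curve stands at 16.7% and the curve of all probes at 3.94%, and at 0 they stand at 61.1% and 40.6%.

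Because the knocked-out gene encodes a factor that binds the cAMP response element (CRE), the start regions of the family were searched for it. The sequences are RefSeq start regions of build GRCm38.p6, from 250 bases before to 50 bases after the annotated start, with 41 windows for 38 of the 46 genes. The full element TGACGTCA was found in 1 family window, that of Tubb2a, and in 1.79% of all 32851 windows. The 5-base core TGACG, on either strand and including the copies inside the full element, was in 14 family windows (34.1%) and in 20.8% of all windows. The AP-1 element TGACTCA was in 0 family windows on either strand and in 5.2% of all. The CArG box, which binds the serum response factor known to act on actin genes, was in 1 family window, that of Arpc4, and in 1.63% of all.

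Of the 8 genes with a probe past the threshold, 7 had a window. None of their 9 windows held the full element, and 2 held the core, those of Arpc1a and Capzb. The bases before the start are printed for these 2 genes, for Tubb2a as the holder of the full element, and for Cfl1 as the gene that was higher. They read 5′ to 3′ along the gene's strand, and capitals mark the core or the full element. The stretches are chr5:145083619-145083868 on the plus strand for Arpc1a, chr4:139193861-139194110 on the plus strand for Capzb, chr13:34078009-34078258 on the minus strand for Tubb2a and chr19:5490205-5490454 on the plus strand for Cfl1.
Arpc1a: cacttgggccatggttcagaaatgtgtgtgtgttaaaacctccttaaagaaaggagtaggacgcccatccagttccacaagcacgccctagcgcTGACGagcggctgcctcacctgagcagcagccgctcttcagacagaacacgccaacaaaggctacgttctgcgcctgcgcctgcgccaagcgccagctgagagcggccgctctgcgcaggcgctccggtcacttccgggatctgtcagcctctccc
Capzb: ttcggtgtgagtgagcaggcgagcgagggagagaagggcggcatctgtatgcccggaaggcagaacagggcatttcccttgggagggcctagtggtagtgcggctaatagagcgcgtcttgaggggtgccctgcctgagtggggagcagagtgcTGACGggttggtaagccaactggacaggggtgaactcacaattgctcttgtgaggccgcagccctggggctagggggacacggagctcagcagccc
Tubb2a: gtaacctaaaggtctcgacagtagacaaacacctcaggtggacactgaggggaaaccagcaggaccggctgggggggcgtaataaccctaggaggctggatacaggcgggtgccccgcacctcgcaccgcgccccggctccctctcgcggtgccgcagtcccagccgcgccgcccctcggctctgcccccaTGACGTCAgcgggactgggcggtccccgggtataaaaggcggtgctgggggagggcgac
Cfl1: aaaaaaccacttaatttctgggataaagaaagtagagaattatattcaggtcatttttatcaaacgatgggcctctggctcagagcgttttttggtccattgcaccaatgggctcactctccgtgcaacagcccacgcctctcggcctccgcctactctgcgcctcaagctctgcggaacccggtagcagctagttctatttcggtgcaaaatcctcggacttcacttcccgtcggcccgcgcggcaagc
The core begins 156 bases before the start in Arpc1a and 96 bases before it in Capzb, and the full element begins 59 bases before it in Tubb2a. A match describes these letters, not a bound site. The Tubb2a probe did not exceed background anywhere, at 99.2 to 142.4 on the knockout arrays and 134.2 to 160.1 on the wild-type arrays.

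**Figure D3:**
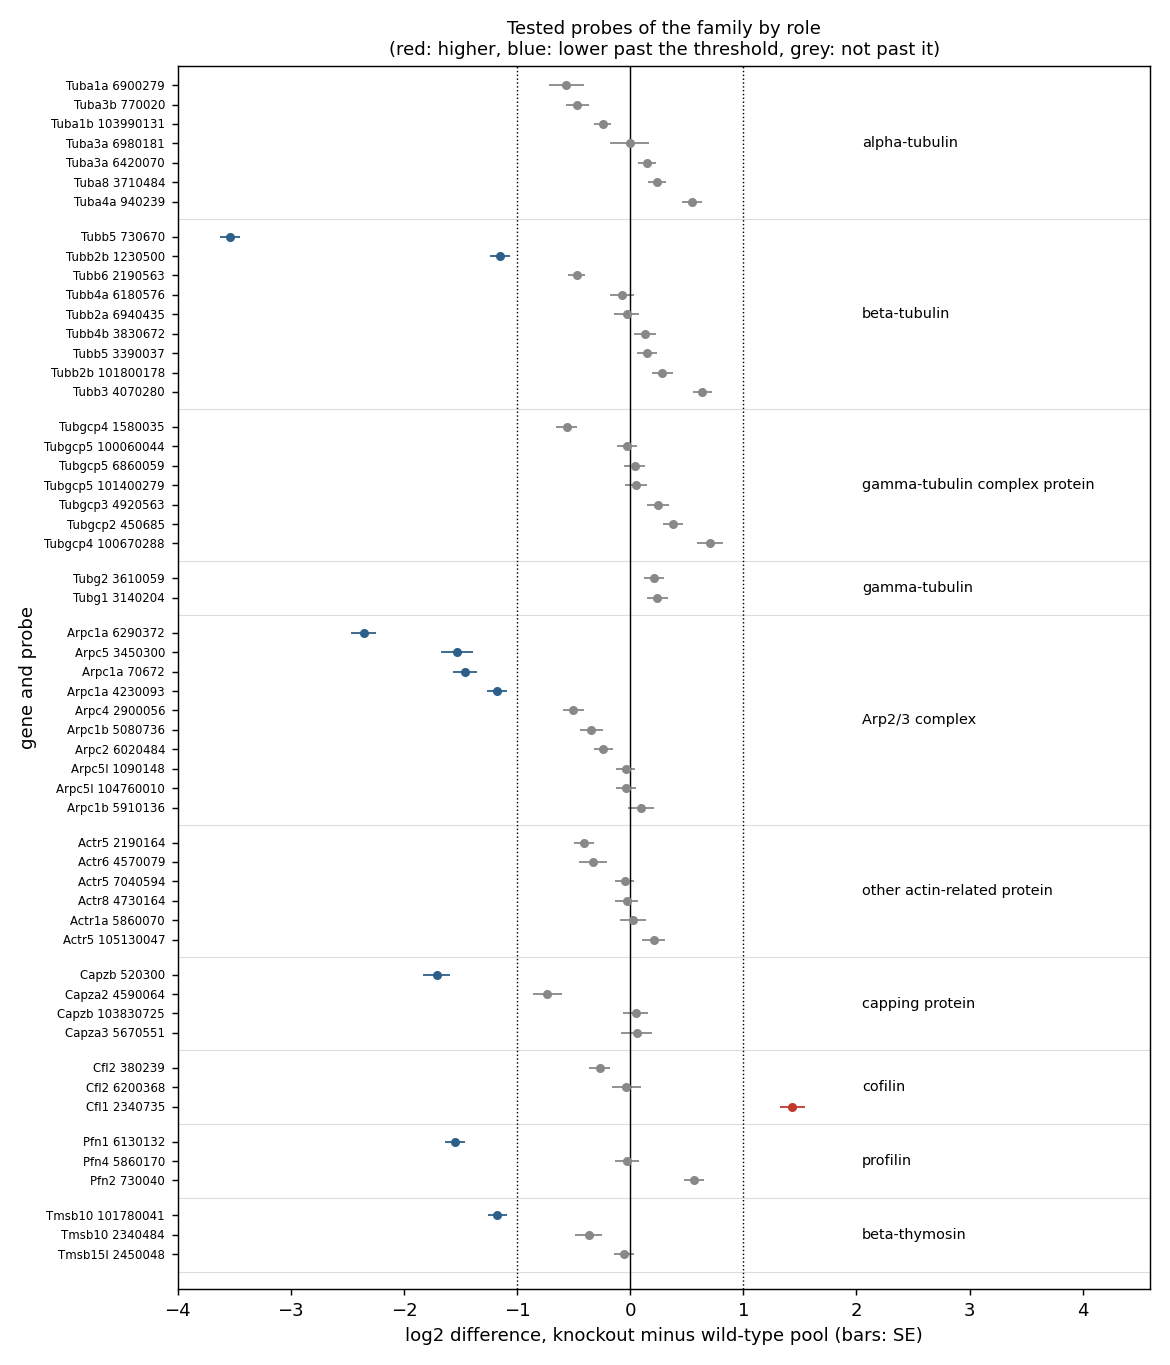
Log2 difference (knockout minus wild-type pool) of the 54 tested probes, grouped by role, with bars for the SE and dotted lines at 2-fold. Probes lower past the threshold are blue, the higher one is red and those not past it are grey. The lower probes sit in the beta-tubulin, Arp2/3, capping protein, profilin and beta-thymosin groups.

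By probe, the Arp2/3 complex held the largest share of lower probes, 4 of its 10 tested probes, of which 3 are of Arpc1a. By gene these are Arpc1a and Arpc5 among 6 tested genes, a smaller share than in the beta-thymosins, with Tmsb10 among 2 tested genes. Arpc1a, which encodes a form of the ARPC1 subunit, fell on all 3 of its tested probes. Its probe 6290372 read 268.5, 277.3 and 261.1 on the knockout arrays, against 1536, 1468.8 and 1562.1 on the wild-type arrays. The means were 269 ± 8.11 and 1522 ± 48.14 (SD, n = 3 arrays each), 5.12-fold lower in the knockout pool (log2 difference -2.36, SE 0.11, limma adjusted p = 1.19e-08). The groups lay far apart on this probe, with all 3 knockout arrays still above background.

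Probe 70672 of Arpc1a read 478.8, 483.3 and 448.8 on the knockout arrays, against 1518.6, 1413.9 and 1511.6 on the wild-type arrays (-1.46, SE 0.10, limma adjusted p = 3.71e-07). Probe 4230093 read 1344.6, 1121.4 and 1028.5 on the knockout arrays, against 2885.1, 2945.2 and 3121.8 on the wild-type arrays (-1.18, SE 0.09, adjusted p = 6.21e-07). No array of one pool overlapped the other pool on either probe, and one more probe, 104670487, did not exceed background on any array. On the authors' log2 values the 3 probes were at -2.15, -1.36 and -1.14, in the same order. The probes of Arpc1a thus pointed the same way but differed in size by 1.18 on the log2 scale.

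Arpc1b, which encodes the other form of the same subunit and lies like Arpc1a on chromosome 5, stayed within 2-fold on both of its probes. Probe 5910136 averaged 1944 in the knockout pool and 2012 in the wild-type pool (0.09, adjusted p = 0.574), and probe 5080736 averaged 1268 in the knockout pool and 1803 in the wild-type pool (-0.34, adjusted p = 0.0189). The difference between Arpc1a and Arpc1b was not tested.

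The same split appeared for the ARPC5 subunit. Arpc5 read 294.4, 233.5 and 285.9 on the knockout arrays, against 896.8, 828.4 and 956.9 on the wild-type arrays. The means of 271.3 ± 32.98 and 894 ± 64.29 (SD, n = 3 arrays each) gave a difference of -1.53 (SE 0.14, limma adjusted p = 3.97e-06), and the groups did not overlap. Its paralogue Arpc5l was at -0.04 on both probes, with adjusted p values of 0.751 and 0.773, and 1 of these probes was above background on a single wild-type array. This difference between paralogues was not tested either.

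The remaining subunits moved less. Arpc2, whose product forms part of the structural core of the complex, read 14765.4, 12705.6 and 11607.8 on the knockout arrays, against 17953.8, 16138.3 and 15397.2 on the wild-type arrays (-0.24, SE 0.08, limma adjusted p = 0.039). Its knockout arrays were lower without overlap, by far less than 2-fold. With each array scaled to its 75th percentile, Arpc2 was at -0.09 (limma adjusted p = 0.388). Arpc4, another core subunit, averaged 1560 in the knockout pool and 2464 in the wild-type pool (-0.50, adjusted p = 0.000828), and its other probe was at background on every array. Both probes of Actr3, which encodes the actin-related subunit Arp3, were not above background on any array, at 88.7 to 135.5 on the knockout arrays and 107.8 to 149.4 on the wild-type arrays. Of the 10 tested Arp2/3 probes 9 had negative values, and their median was -0.42. No probe analysed here carried Actr2 or Arpc3 as its single platform symbol, so neither gene was read.

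Capping protein is a dimer of an alpha and a beta subunit. Capzb, the beta subunit gene, read 986.4, 1048.3 and 1078.5 on the knockout arrays of probe 520300, against 3771.6, 3765 and 3889.2 on the wild-type arrays. The means were 1038 ± 46.95 and 3809 ± 69.88 (SD, n = 3 arrays each), 3.28-fold lower in the knockout pool (-1.71, SE 0.12, limma adjusted p = 3.54e-07). The arrays of each pool lay within a narrow range on this probe and the pools lay far apart. Its other probe, 103830725, read 142.9, 145.5 and 111.8 on the knockout arrays, against 137.6, 162.9 and 152.9 on the wild-type arrays (0.05, SE 0.11, adjusted p = 0.777). That probe overlapped between the pools and exceeded background on a single wild-type array.

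Of the alpha subunit genes, Capza2 averaged 137.3 ± 6.637 in the knockout pool and 251 ± 19.51 in the wild-type pool on probe 4590064 (SD, n = 3 arrays each). Its difference of -0.73 (SE 0.13, limma adjusted p = 0.000593) was under 2-fold, with 1 of 3 knockout arrays above background. The other 2 Capza2 probes and the Capza1 probe did not exceed background on any array. Capza3, whose product belongs to the sperm, was at 0.06 (adjusted p = 0.78).

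Cfl1, which encodes non-muscle cofilin, was the member that rose. It read 611.2, 620.7 and 370.7 on the knockout arrays, against 265, 262.7 and 267.9 on the wild-type arrays. The means of 534.2 ± 141.7 and 265.2 ± 2.606 (SD, n = 3 arrays each) gave a 2.70-fold higher value in the knockout pool after normalization (1.43, SE 0.11, limma adjusted p = 6.55e-07). All knockout arrays lay above all wild-type arrays, knockout array 3 being the nearest to them. The single Cfl1 probe was above background on all 6 arrays, and the authors' values gave a difference of 1.22. Cfl2, the muscle cofilin gene, was at -0.03 and -0.27 on its 2 probes (adjusted p = 0.874 and 0.042).

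Pfn1, the gene of the profilin found in nearly all cells, fell. Its probe read 880.7, 721.9 and 593.6 on the knockout arrays, against 2484.6, 2331.1 and 2366.9 on the wild-type arrays. The means were 732.1 ± 143.8 and 2394 ± 80.31 (SD, n = 3 arrays each), 2.92-fold lower in the knockout pool (-1.55, SE 0.09, limma adjusted p = 5.24e-08). The pools lay apart on this probe, and it was above background on all 6 arrays.

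Pfn2, whose product is the main profilin of nerve cells, went the other way without reaching 2-fold. It averaged 276 in the knockout pool and 251.7 in the wild-type pool (0.56, SE 0.09, adjusted p = 0.000277), while probe 5700026 did not exceed background. The raw values behind the 0.56 overlapped between the pools, and the normalized values did not. The testis forms Pfn3 and Pfn4 were at or near background, Pfn4 being above it on 1 wild-type array.

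The beta-thymosins were dim throughout. On probe 101780041 Tmsb10 read 154, 131.5 and 126.5 on the knockout arrays, against 332.1, 317.5 and 327.2 on the wild-type arrays (-1.18, SE 0.08, limma adjusted p = 3.93e-07). No knockout array exceeded background, which leaves a bound of at least 1.98-fold lower. Its probe 2340484 read 144.7, 123.3 and 135.3 on the knockout arrays, against 196.9, 208 and 182.1 on the wild-type arrays, with a bound of at least 1.10-fold lower (-0.37, SE 0.12, adjusted p = 0.0288). The first fell short of 2-fold on the authors' values (-0.87). On both probes the raw knockout values lay below all wild-type values, although the normalized values of the second overlapped. Such a bound sets the wild-type mean against the background limit of the knockout arrays, or against the probe's own value on an array where that is higher, all on the normalized scale. Tmsb4x, the thymosin gene of most cells, was not above background on any array (89 to 117.3 on the knockout arrays and 116.4 to 123.6 on the wild-type arrays), and neither was Tmsb15l.

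Among beta-tubulins, 2 of 9 tested probes fell, and both belong to genes in which a brighter probe did not. Probe 730670 of Tubb5, a beta-tubulin of dividing cells, read 164, 156.1 and 128.8 on the knockout arrays, against 1605.3, 1566.7 and 1692.9 on the wild-type arrays. The means were 149.6 ± 18.47 and 1622 ± 64.67 (SD, n = 3 arrays each), 11.6-fold lower in the knockout pool (-3.54, SE 0.09, limma adjusted p = 3.3e-10). This was the largest difference of the family in either direction, with 2 of the 3 knockout arrays just above background and 1 below. Its size depends on how background is treated, at -3.07 on the authors' values and -4.79 with each array's mode subtracted.

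The other Tubb5 probe, 3390037, read 9050.2, 8413.2 and 7165.8 on the knockout arrays, against 8936.3, 7592.7 and 9097.1 on the wild-type arrays (0.15, SE 0.09, limma adjusted p = 0.215). Its raw values overlapped between the pools. Both probes are annotated to the same RefSeq transcript of the gene, and probe sequences were not used here.

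Probe 1230500 of Tubb2b, a beta-tubulin best known from neurons, read 106.7, 103.2 and 82.1 on the knockout arrays, against 216.8, 190.3 and 214.4 on the wild-type arrays (-1.15, SE 0.09, limma adjusted p = 6.32e-07). No knockout array exceeded background, and the bound is at least 1.18-fold lower. Its brighter probe, 101800178, read 1725, 1545 and 1173.4 on the knockout arrays, against 1498, 1314.5 and 1371.4 on the wild-type arrays (0.29, SE 0.09, adjusted p = 0.0246). The dim probe fell short of 2-fold on the authors' values (-0.74). It was lower in all knockout arrays while the brighter one overlapped in raw intensity, and the remaining probe was at background.

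The other beta-tubulins did not pass the threshold. Tubb4b, a widely expressed isotype, read 12757.6, 12231.7 and 7849.6 on the knockout arrays, against 10408.8, 10691.6 and 10921.3 on the wild-type arrays (0.13, SE 0.10, limma adjusted p = 0.319), with overlap between the pools. Tubb6 averaged 6006 in the knockout pool and 9589 in the wild-type pool (-0.47, adjusted p = 0.000249). Tubb3, a marker of neurons, was at 0.64 (adjusted p = 7e-05), and Tubb2a and Tubb4a, both not above background, were at -0.03 and -0.07. The raw values of Tubb3 overlapped between the pools, and its normalized values did not.

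None of the 7 tested alpha-tubulin probes passed the threshold, and by limma 2 were higher and 3 lower at an unadjusted p under 0.05. Of all tested probes 25.8% were higher and 20% lower at that p. Tuba1b, a main alpha-tubulin of most cells, read 16273.1, 13888.2 and 11494.4 on the knockout arrays, against 18299.8, 18775 and 16647.1 on the wild-type arrays (-0.24, SE 0.07, limma adjusted p = 0.021). Its knockout arrays were all slightly lower. With each array scaled to its 75th percentile, Tuba1b was at -0.13 (limma adjusted p = 0.291). Tuba1a, prominent in developing neurons, was at -0.56 and Tuba3b at -0.47, while Tuba4a was at 0.55 and Tuba8 at 0.24. The raw values of Tuba4a and of the tested Tuba8 probe overlapped between the pools, and their normalized values did not. The 2 tested Tuba3a probes were at -0.0046 and 0.15. The 5 untested probes, of Tuba3a, Tuba8 and Tubal3, read 94.9 to 139.7 over all arrays. Tubulin isotypes are close in sequence and probe sequences were not used here, so signal of one isotype on a probe of another cannot be told apart, for alpha and beta alike.

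Nor did any probe of gamma-tubulin or of its complex pass. Tubg1, the main gamma-tubulin gene, read 772, 746 and 557.4 on the knockout arrays, against 729.8, 650.7 and 729.9 on the wild-type arrays (0.24, SE 0.09, limma adjusted p = 0.055), and Tubg2 was at 0.21. The raw values of both overlapped between the pools, and both had an unadjusted limma p under 0.05. Tubgcp2, whose product binds gamma-tubulin in its smallest complex, read 681.2, 751.2 and 562.1 on the knockout arrays, against 631.6, 621.6 and 613.9 on the wild-type arrays (0.38, SE 0.09, adjusted p = 0.00457). Over the 7 tested probes of the gamma-tubulin complex proteins, 3 were higher and 1 lower at an unadjusted limma p under 0.05, where 25.8% and 20% of all tested probes were.

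Tubgcp4, another protein of that complex, split between its probes. Probe 100670288, annotated to a cDNA other than the RefSeq transcript, was at 0.71 (limma adjusted p = 0.000334). Its raw values overlapped between the pools, and its normalized values did not. Probe 1580035, annotated to the RefSeq transcript and at background on all 3 knockout arrays, was at least 1.31-fold lower (adjusted p = 0.00052). Tubgcp3 was at 0.25, the 3 tested Tubgcp5 probes lay between -0.03 and 0.05, and the Tubgcp6 probe was not above background.

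The actin-related proteins outside Arp2/3 also held no probe past the threshold among 6 tested, with 0 higher and 2 lower at an unadjusted limma p under 0.05 (25.8% and 20% of all tested probes). Actr1a, the filament subunit of dynactin, the adaptor of the motor dynein, read 2526.9, 2674.1 and 1531.3 on the knockout arrays, against 2397.9, 2416.9 and 2485.7 on the wild-type arrays (0.03, SE 0.12, limma adjusted p = 0.884). The wild-type arrays lay inside the range of the knockout arrays. Actr5, Actr6 and Actr8, subunits of chromatin-remodelling complexes, lay between -0.41 and 0.21.

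**Figure D4:**
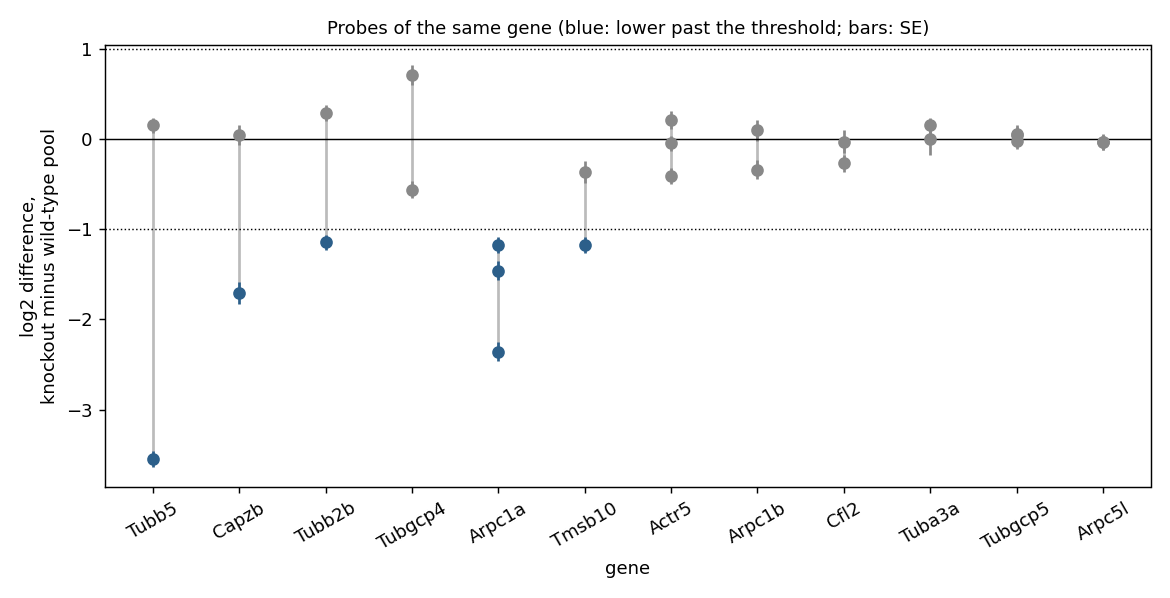
Log2 difference (knockout minus wild-type pool) of each tested probe of the 12 genes with more than 1 tested probe, with bars for the SE, grey lines joining the lowest and highest probe of a gene, and dotted lines at 2-fold. Blue points are lower past the threshold. Only in Arpc1a are all tested probes blue, and the widest span, 3.69, is that of Tubb5.

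Of the 12 genes with at least 2 tested probes, 5 had a probe past the threshold, and in Arpc1a every tested probe passed. Counted by probe, 4.92% of all tested probes passed. The share among all genes with at least 2 tested probes was not computed, so the 5 of 12 cannot be set beside the array. In Tubb5, Capzb, Tubb2b and Tmsb10 1 of 2 tested probes passed. The spans between probes of these genes were 3.69, 1.76, 1.43 and 0.81 on the log2 scale. Arpc5, Cfl1 and Pfn1 each had a single probe, so no other probe can be set beside their values. Of the 64 probes annotated to RefSeq transcripts 31 were above background on all 6 arrays, and of the 12 annotated to other GenBank cDNAs 2 were. The filter on mean signal left only some of these 12 for the test. Of those tested 0 were past the threshold, where 4.92% of all tested probes were, so their small number shows little.

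Other genes of actin and microtubule turnover were read from 4 lists, with each gene represented by its brightest tested probe. Of 77 tested genes 7 fell and 0 rose, where 2.5% of all 12096 genes were lower and 1.12% higher, and the median of the 77 was 0.06. At an unadjusted limma p under 0.05, 29.7% of all genes were higher and 18.1% lower.

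Of 20 regulators of Arp2/3 activity and branching, 3 fell, and at the unadjusted p 7 were higher and 5 lower. Cttn, the gene of cortactin, which binds and stabilises branches, read 256.6, 249.5 and 181.1 on the knockout arrays, against 858.6, 811.2 and 841.7 on the wild-type arrays (-1.73, SE 0.09, limma adjusted p = 3.12e-08). Of the 4 tested Cttn probes 2 were lower past the threshold. Coro1b, a coronin gene of branch turnover, read 130.4, 106.9 and 83, all at background, on the knockout arrays, against 257.3, 280.6 and 276.9 on the wild-type arrays, with a bound of at least 1.60-fold lower (adjusted p = 9.97e-07). Neither gene overlapped between the pools. Nckap1, a subunit gene of the WAVE complex that activates Arp2/3, fell by 1.25 on the log2 scale and completes the count. Wasf2, another WAVE subunit gene, gave 0.11 on its brightest probe and passed at -1.01 on another.

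Of 28 actins and filament turnover factors 3 fell, and at the unadjusted p 8 were higher and 8 lower. Diaph1, a formin gene whose product grows unbranched filaments, read 159.3, 145.5 and 124.8, all at background, on the knockout arrays, against 626.5, 605.6 and 568.2 on the wild-type arrays, with a bound of at least 3.97-fold lower (adjusted p = 3.73e-09). The other of the 2 tested Diaph1 probes was not past the threshold. Dstn, the gene of destrin, a relative of cofilin, read 154.5, 150.6 and 127.6 on the knockout arrays, against 370.1, 347.6 and 268.1 on the wild-type arrays (-1.06, adjusted p = 2.47e-05). The pools lay apart on both genes, and 1 knockout array of Dstn exceeded background. Twf1, a twinfilin gene, was at -1.05 and completes the count. Actb, cytoplasmic beta-actin itself, averaged 22060 ± 2817 in the knockout pool and 21810 ± 123.9 in the wild-type pool (SD, n = 3 arrays each; 0.21, limma adjusted p = 0.0317).

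Some genes of these lists passed on a probe that was not their brightest. The brightest probe of Tpm3, a tropomyosin gene, gave -0.16, and 2 others gave -2.78 and -2.52. The brightest probe of Enah, a filament elongation factor gene, gave 0.06, and another gave 1.38. Tpm3, Enah, Wasf2 and Actb were chosen after their values were seen.

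No gene of tubulin folding or microtubule dynamics passed among 23 tested, and 9 were higher and 3 lower at the unadjusted limma p. The brightest, the tubulin cofactor gene Tbca, read 3738.2, 3588.7 and 1969.1 on the knockout arrays, against 4138.3, 3840.4 and 3719.2 on the wild-type arrays (-0.22, limma adjusted p = 0.233), and its raw values overlapped narrowly. Of 6 other dynactin subunit genes Dctn3 fell by 1.23 on the log2 scale (adjusted p = 1.17e-06), with 286.6, 292.9 and 264.2 on the knockout arrays, against 751.2, 754.3 and 793.2 on the wild-type arrays. The remaining 5 lay between 0.10 and 0.37, and at the unadjusted p 2 of the 6 were higher and 1 lower.

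Some cell type markers also differed between the 2 pools. In bulk RNA, fewer cells of a type and less RNA per cell cannot be told apart. Of all 12096 genes by their brightest probe, 2.5% were lower and 1.12% higher past the threshold. At an unadjusted limma p under 0.05, 18.1% were lower and 29.7% higher. Of 7 fibroblast and matrix markers 4 fell, and their summed raw intensity was 3200 to 4377 on the knockout arrays and 8393 to 9259 on the wild-type arrays. Of 4 macrophage markers 2 fell, with sums of 836.3 to 1080 on the knockout arrays and 1636 to 1701 on the wild-type arrays. The 13 keratinocyte markers summed to 174300 to 220100 on the knockout arrays and 240500 to 243200 on the wild-type arrays, with 1 higher and 2 lower past the threshold. All such sums are of raw intensity, whose median was lower on every knockout array than on the wild-type arrays. After normalization the median difference of the 13 keratinocyte markers was -0.27, and 8 of them were negative. Of 5 tested skeletal muscle markers 2 fell, with sums of 887.8 to 1504 on the knockout arrays and 2519 to 2687 on the wild-type arrays. Of 3 erythroid markers 2 rose, with sums of 37360 to 47950 on the knockout arrays and 23360 to 23760 on the wild-type arrays, and 1 of 5 neutrophil markers rose. None of 5 endothelial markers passed (2 lower at an unadjusted limma p under 0.05) and none of 3 T cell markers (2 higher). By their brightest probe none passed of 4 smooth muscle, 3 platelet and 1 nerve markers either, of which 1, 1 and 1 were higher and 1, 1 and 0 lower at that unadjusted p. Another, dimmer probe was lower past the threshold for the smooth muscle and pericyte genes Acta2 and Rgs5, at background on the knockout arrays. Counted on any probe, 5 fibroblast and matrix genes and 3 keratinocyte genes were lower past the threshold, and 3 erythroid genes were higher. The share of all genes counted on any probe was not computed, and the shares by brightest probe are no measure for these counts. The remaining marker lists kept their counts. The summed brightest probes of the smooth muscle list were 2218 to 3090 on the knockout arrays and 3925 to 4024 on the wild-type arrays. On no array were the endothelial markers Kdr and Tek or the T cell markers Cd3g, Cd8a and Cd4 above background. The part of these markers in the results for the actin and tubulin genes was not tested.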

How the data were processed

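Total RNA of 2 pools was hybridised to 6 single-colour Illumina bead arrays, 3 per pool. The files deposited for single arrays hold raw intensity per probe, per the file headers, without detection p-values. The submitters' processing notes name BeadStudio 3. A table of log2 values was also deposited by the authors; its 6 columns share a distribution (column medians of 7.25) and keep each array's rank order (Spearman correlation 1), as quantile normalization leaves them, but the sources used here do not name the method.

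Raw intensities of 46116 probes were background-corrected (limma normexp, offset 50), quantile-normalized and analysed as log2, where the offset pulls the differences of dim probes towards 0. The 23058 probes whose mean exceeded the overall median were tested with limma (lmFit, eBayes with intensity trend, two-sided; limma 3.58.1 in R 4.3.3), and p-values were adjusted over all of them by Benjamini-Hochberg. The procedure was tested on simulated data with independent noise for every probe and array. That simulation held no biological or chip differences, so it does not bear on what separates these 2 RNA pools. The number of arrays limits the precision. Gene names are those of the platform annotation in GEO. Of all probes, 29534 had 1 symbol, 11 several and 16571 none listed, and the 76 family symbols matched a RefSeq table of GRCm38.p6. Values on all arrays are given for probes past the threshold, for other tested probes of their genes and for the brightest probe of each role group; of each list, for the 2 largest falls or, with no call, the brightest member. The members, lists and alternatives were chosen with earlier results of these data known. Alternatives were the authors' values, background correction, scaling, filters, the intensity trend, a replicate block and leaving out each array. Replicate numbers did not pair arrays: deviations of same-numbered arrays correlated at 0.105, -0.129 and 0.044.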

Additional observations from a re-analysis of the deposited data

How the results depend on the processing

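The count of lower family probes (9) was 7 with the authors' log2 values, with an offset of 100 and with no background correction, 8 with each array's mode subtracted and a floor of 50, and 6 among probes above background on all 6 arrays; the higher count of 1 was 2 with the mode subtracted, when Tubgcp4 was also past the threshold. Of all 23058 tested probes 1135 were past the threshold. This count was 748 with the authors' values, 782 with an offset of 100 and 857 with no background correction, each with 54 family probes tested. With the mode subtracted 43 family probes were tested, and 2046 of 16477 probes in all were past the threshold. Among probes above background on all 6 arrays 33 family probes were tested, and 659 of 11840 in all were past it. The 7 genes of the 4 lists were 4 with the authors' values, 5 with an offset of 100 and 5 with no background correction. They were 8 of 66 tested genes with the mode subtracted, and 4 of 58 among probes above background on all 6 arrays. The Tubb2b probe fell short of 2-fold with the authors' values (-0.74), an offset of 100 (-0.77), no background correction (-0.85) and the mode subtracted (-0.47), and the Tmsb10 probe did so in the first 3 of these (-0.87, -0.90 and -0.97). The causes were not tested. Leaving out each array in turn gave 8 to 9 lower and 1 higher family probes, 1099 to 1231 probes in all, 6 to 7 list genes and a family median of -0.08 to -0.02; the probe lost was that of Tubb2b, which missed the filter on mean signal without any 1 of the wild-type arrays. With a replicate block the counts were 9, 1, 1137 and 7. Of the family probes named with values on every array, 2 that did not pass changed sign when an array was left out. The second Capzb probe ranged from -0.0394 to 0.1464 (negative without knockout array 2 or wild-type array 1). Actr1a ranged from -0.0944 to 0.1695 (negative without knockout array 2). Single probes of the list genes and markers were not followed in this way. Signal close to background limits Tubb2b, Tmsb10 and the knockout values of Tubb5.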
